A study of Rattus norvegicus with 6 samples.

Results

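The genes described here are 10 members of the amino acid response that is run by the transcription factor ATF4: Asns, Atf4, Atf3, Atf5, Ddit3, Trib3, Chac1, Sesn2, Ddit4 and Ppp1r15a. They were selected by gene symbol, out of 14217 genes with a probe set of their own, and the set was proposed with earlier results of the same comparison known, that for Asns above all. All 10 were measured, by 13 probe sets, and all 10 were bright enough to be among the 10372 genes tested. Where a gene had several probe sets, its main one was chosen by the highest mean over all 6 arrays, which does not use the difference between the groups.

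Livers came from Sprague-Dawley rat offspring aged 3 weeks, at weaning, in 2 groups that differed in what the mother ate. In one group the dams of 3 pups were fed a high fat diet, and in the other the dams of 3 pups were fed standard chow, the control diet. Each liver was measured on 1 Affymetrix rat array, which gives a log2 signal per probe set from several short probes. The labels give neither the make-up of the diets nor the sex or litter of a pup. Any p-value takes these 6 pups as the units, although the diet was fed to dams and some pups may share a dam.

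ATF4 is made when a kinase phosphorylates the translation factor eIF2. Amino acid shortage acts through GCN2 (Eif2ak4) and stress of the endoplasmic reticulum through PERK (Eif2ak3). Most protein synthesis then slows, while Atf4 mRNA is translated better because of short reading frames ahead of its coding part, so that ATF4 protein can change without its mRNA. ATF4 pairs with C/EBP proteins on composite C/EBP-ATF response elements (CARE) and raises genes of amino acid synthesis, uptake and tRNA charging, as well as genes that end the response or lead to cell death. An array sees only the mRNA.

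The start regions of 4 of the 10 genes are shown because they differ in which of the searched motif letters they hold. Each is the 250 bases before the annotated start, on the gene's own strand, from RefSeq on build GRCr8, with motif letters in capitals. RefSeq's table of start regions held 9 of the 10 genes. Asns lies at chr4:36769416-36769665 on the minus strand, Chac1 at chr3:126795881-126796130 on the plus strand, Trib3 at chr3:161275534-161275783 on the minus strand and Ppp1r15a at chr1:105139597-105139846 on the minus strand.
Asns: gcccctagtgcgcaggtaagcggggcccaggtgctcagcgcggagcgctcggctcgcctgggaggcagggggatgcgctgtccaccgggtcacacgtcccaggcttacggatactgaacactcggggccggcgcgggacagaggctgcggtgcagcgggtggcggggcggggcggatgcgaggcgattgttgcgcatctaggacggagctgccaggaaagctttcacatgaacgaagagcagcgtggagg
Chac1: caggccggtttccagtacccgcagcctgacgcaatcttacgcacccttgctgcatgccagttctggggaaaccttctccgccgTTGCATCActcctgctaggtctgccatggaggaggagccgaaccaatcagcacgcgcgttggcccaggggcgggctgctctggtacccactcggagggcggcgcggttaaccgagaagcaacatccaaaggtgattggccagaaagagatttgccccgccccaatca
Trib3: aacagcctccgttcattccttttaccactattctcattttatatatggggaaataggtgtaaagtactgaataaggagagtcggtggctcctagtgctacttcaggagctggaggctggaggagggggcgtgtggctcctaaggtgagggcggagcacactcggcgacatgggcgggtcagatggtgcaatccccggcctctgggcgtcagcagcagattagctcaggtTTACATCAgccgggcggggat
Ppp1r15a: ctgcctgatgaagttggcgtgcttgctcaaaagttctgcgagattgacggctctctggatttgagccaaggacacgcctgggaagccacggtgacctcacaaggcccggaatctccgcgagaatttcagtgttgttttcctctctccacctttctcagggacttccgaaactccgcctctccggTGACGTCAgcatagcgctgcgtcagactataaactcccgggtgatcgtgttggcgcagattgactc

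The capitals in Chac1 and Trib3 mark the core of the CARE, TGATGNAA, read on the opposite strand, 167 to 160 and 21 to 14 bases before the start. Those in Ppp1r15a mark a cyclic AMP response element, TGACGTCA, 66 to 59 bases before the start, which reads the same on both strands. The Asns window holds neither string, which says only that these letters are not in this window. Both strands of windows from 250 bases before to 50 bases after the start were searched. A gene can have several windows: 45 of 54 other ATF4 targets had 48, and all 27457 genes had 33469. At least 1 window held the CARE core in 2 of the 9 members, in 16 of the 45 other ATF4 targets (35.6%) and in 4.16% of all genes. The cyclic AMP element was in 1 of the 9, in none of the 45 and in 549 of all genes (2%). Counted by windows, it was in 1.83% of all. The endoplasmic reticulum stress element, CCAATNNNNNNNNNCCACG, was in none of the 9 or the 45 and in 0.0765% of all genes. Matches are strings of letters, and binding was not measured.

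The CARE cores of Chac1 and Trib3 are set here against those of 6 other ATF4 targets, chosen on these data from the tested targets with a single core: the 3 with the smallest p, Slc7a1, Nupr1 and Iars1, and the 3 with the largest, Tars1, Slc1a4 and Yars1. All are written in the direction of the core, which is in capitals with up to 6 bases on each side (the window of Yars1 ends sooner). All high fat arrays lay above the controls for Slc7a1, Nupr1 and Iars1, and the groups overlapped for the other 5. For the 6 chosen by p this split follows from the choice. The letters are therefore shown as a description, and no link between them and the changes is read.
Chac1: caggagTGATGCAAcggcgg
Trib3: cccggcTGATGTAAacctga
Slc7a1: cgcggcTGATGAAAccggct
Nupr1: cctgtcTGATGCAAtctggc
Iars1: tggaggTGATGCAAtactga
Tars1: accagcTGATGCAAcgggac
Slc1a4: gctggaTGATGCAAcgctgg
Yars1: ctcagcTGATGCAAcctg

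The Chac1 site is at chr3:126795958-126795977 and the Trib3 site at chr3:161275541-161275560. The letters after TGATG are CAA in 6 of the 8 sites, TAA in Trib3 and AAA in Slc7a1. None of the 8 genes passed limma's adjusted threshold, with adjusted p of 0.156 to 0.667. Of the 45 other targets with a window 39 could be tested. All high fat arrays lay above all control arrays in 8 of the 14 with a core and 11 of the 25 without, where 9.24% of all tested genes did. The median log2 changes were 0.53 with a core and 0.20 without, against -0.02 over all tested genes, and the difference was not tested.

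Several arrays stood apart from their group and bear on the values that follow. High fat replicate 1 carried transcripts of exocrine pancreas: the summed log2 level of the 17 markers measured, of 19 listed, was 15.98 there, 11.55 and 11.87 in the other high fat arrays and 11.58 to 12.21 in controls. Prss1, a trypsinogen, was at 13.08 on that array and at 4.10 to 5.30 on the other 5, and Prss2 was at the floor of 0 in control replicate 1. High fat replicate 3 differed in sex-linked transcripts, with Xist at 4.45 against 12.46 to 13.31 elsewhere and Eif2s3y at 11.14 against at most 3.99. The heat shock gene Hspa1a was at 7.91, 14.19 and 12.60 in high fat replicates 1 to 3 and at 7.18, 7.56 and 7.90 in controls. Control replicate 3 had the highest difference between 3' and 5' probe sets of Gapdh and beta-actin, 1.62 and 4.56, against 0.69 to 1.17 and 3.23 to 3.85 on the other arrays.

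Summed hepatocyte markers, 11 measured of 12, were at 18.04 to 18.11 in high fat livers and 18.11 to 18.14 in controls, and albumin was at 14.46 to 14.77 and 14.55 to 14.62, so the tissue carried the markers of its label. The 8 endothelial markers measured, of 10, were at 13.52 to 13.90 in high fat livers and 14.31 to 14.55 in controls. In bulk tissue, fewer cells of a type and less RNA per cell cannot be told apart. The 5 cholangiocyte markers measured, of 6, summed to 12.02 to 12.21 in high fat livers and 12.59 to 12.84 in controls. Cdh1 carried that sum (mean 11.56 and 12.38), and Spp1 also had a lower mean in high fat livers (4.69 and 5.87). Krt19 (7.14 and 6.42), Krt7 (4.55 and 2.68) and Epcam (10.14 and 10.05) had higher means in high fat livers. Krt7 and Spp1 were too dim to be tested. Kupffer cell (13.65 to 14.35 and 13.95 to 14.22), stellate cell (13.43 to 13.77 and 13.54 to 13.73), erythroid (14.87 to 15.29 and 15.23 to 15.58), neutrophil (9.11 to 10.41 and 9.26 to 10.65) and lymphocyte markers (8.74 to 9.27 and 8.92 to 9.52) overlapped between the diets. The part of these cell types in the results below was not tested.

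Asns, the enzyme that makes asparagine from aspartate with glutamine as the nitrogen donor, was the member with the widest gap. Its log2 signal (probe set 1387925_at) was 9.52, 10.23 and 9.49 in high fat livers, against 7.60, 7.11 and 6.31 in control livers. Every high fat array lay well above every control array, and the gap between the groups was wider than the range within either. The means were 9.75 ± 0.42 (SD, n = 3) in high fat livers and 7.01 ± 0.65 (SD, n = 3) in control livers, which is 6.68-fold. The log2 change, high fat minus control, was 2.74 (SE 0.36, 95% interval 1.89 to 3.59). In limma, adjusted over all 10372 genes, it did not pass the threshold of 0.05 (adjusted p = 0.119), although only 9 genes had a smaller unadjusted p. Without high fat replicate 1, the array with pancreas transcripts, the change was 2.85, and with each array left out in turn it ran from 2.39 to 3.04.

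**Figure D1:**
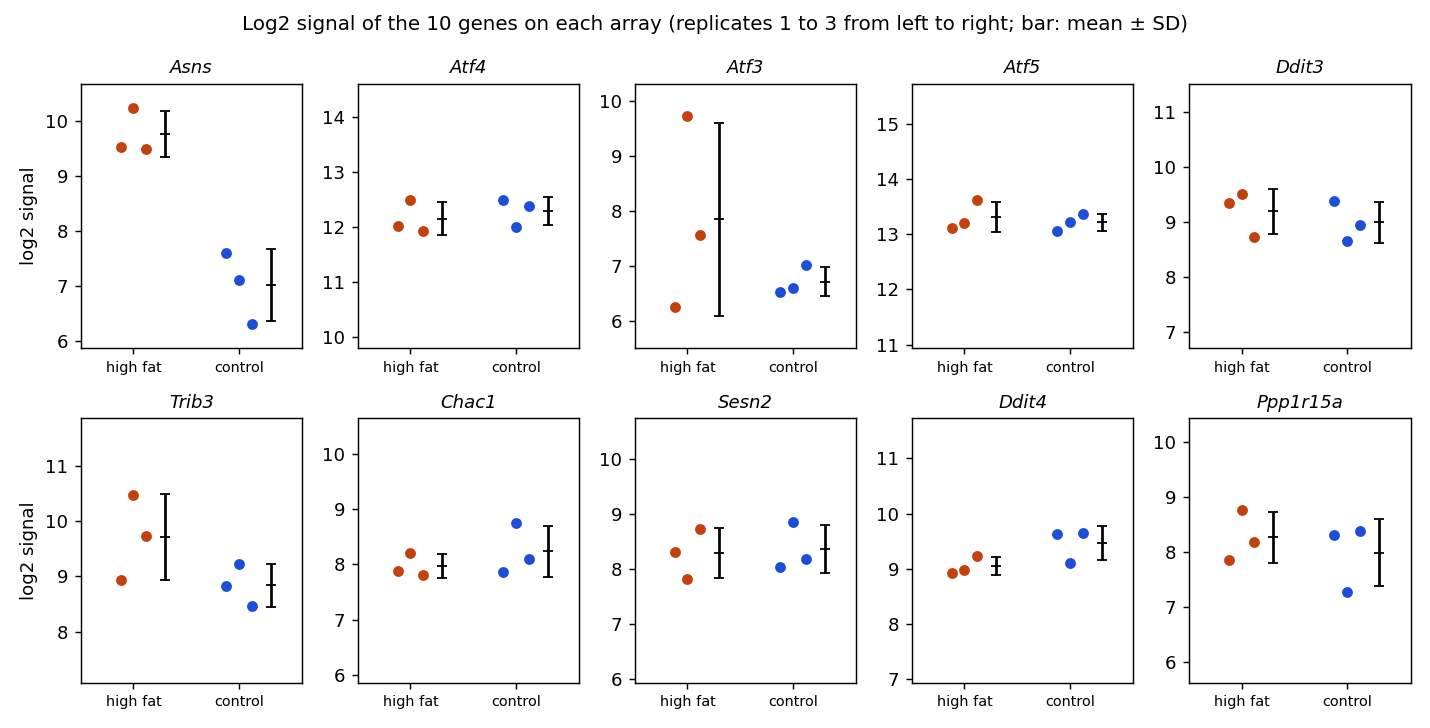
Log2 signal of each of the 10 genes on the 6 arrays, in panels that span the same number of log2 units; orange points are pups of high fat dams, blue points pups of control dams, and the black marks give the mean ± SD (n = 3). Asns lies at 9.49 to 10.23 in high fat livers and 6.31 to 7.60 in control livers, and in the other 9 panels the groups overlap.

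The 4 transcription factor genes of the set overlapped between the diets. Atf4 (1367624_at), the factor itself, was at 12.03, 12.49 and 11.94 in high fat livers, against 12.50, 12.002 and 12.38 in control livers. The highest arrays of both groups were nearly level, and the log2 change was -0.14 (SE 0.21, 95% interval -0.63 to 0.35). Atf5 (1372601_at), a relative of Atf4 that is likewise controlled by translation and is abundant in liver, was at 13.11, 13.21 and 13.63 in high fat livers, against 13.07, 13.22 and 13.37 in control livers. High fat replicate 3 was the highest array, and the change of 0.10 (SE 0.18, 95% interval -0.33 to 0.52) was -0.06 without it. Ddit3 (1369590_a_at), which encodes CHOP, the factor that links lasting stress to cell death, was at 9.34, 9.502 and 8.73 in high fat livers, against 9.38, 8.65 and 8.94 in control livers. Each group held both high and low arrays, and the change was 0.20 (SE 0.27, 95% interval -0.43 to 0.83). For these 3 genes limma's adjusted p was 0.797 (Atf4), 0.843 (Atf5) and 0.777 (Ddit3). A doubling, a log2 change of 1, lies outside all 3 intervals.

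Atf3, a repressor and stress-induced factor of the same family, varied most. It (1369268_at) was at 6.25, 9.73 and 7.55 in high fat livers, against 6.53, 6.60 and 7.02 in control livers. High fat replicate 2 stood far above all other arrays, and replicate 1 below every control. The SD was 1.75 in high fat livers and 0.26 in control livers (n = 3 each), and the change of 1.13 (SE 0.79, 95% interval -0.74 to 3.00; limma adjusted p = 0.573) was 0.19 without high fat replicate 2. Atf3 is also an immediate early gene, and high fat replicates 2 and 3 were also those high for the heat shock gene Hspa1a, whose part in the Atf3 values was not tested. Of 13 immediate early genes tested, none had all high fat arrays above all control arrays and 2 had them all below, Klf4 (-0.90, SE 0.21) and Ier3 (-0.65, SE 0.19), against 9.24% and 11.5% of all tested genes. Nr4a1 was at 0.44 (SE 0.27) and overlapped. The 2 below became 4 without control replicate 2, when 17.8% of all tested genes lay below, and 3 without high fat replicate 1, when 17.9% did. The count above became 1 without high fat replicate 1, control replicate 1 or control replicate 3. Of all tested genes 14.5%, 14.4% and 13.2% then lay above.

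Trib3 and Ppp1r15a act to switch the response off. Trib3 (1370695_s_at), a pseudokinase that binds ATF4 and CHOP, was at 8.93, 10.48 and 9.74 in high fat livers, against 8.82, 9.23 and 8.46 in control livers. High fat replicates 2 and 3 lay above all controls and replicate 1 below control replicate 2. The change was 0.88 (SE 0.40, 95% interval -0.06 to 1.82), 1.84-fold, with a limma adjusted p of 0.385. Its other probe sets, 1386321_s_at and 1370694_at, gave 0.83 and 0.79; the ending _s_at marks probes that can match several transcripts. Single arrays weighed heavily, in opposite directions: leaving out high fat replicate 1 raised the change to 1.27, and leaving out replicate 2 of that group lowered it to 0.50. Ppp1r15a (1370174_at), the GADD34 subunit that directs a phosphatase to eIF2, was at 7.85, 8.77 and 8.18 in high fat livers, against 8.32, 7.28 and 8.38 in control livers. Control replicate 2 was the lowest array of all, and the change of 0.27 (SE 0.36, 95% interval -0.58 to 1.12; limma adjusted p = 0.774) was -0.08 without it.

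Among the effector genes, Chac1 degrades glutathione, and Sesn2 and Ddit4 restrain the growth kinase complex mTORC1. Chac1 (1389573_at) was at 7.87, 8.21 and 7.81 in high fat livers, against 7.87, 8.75 and 8.09 in control livers. High fat arrays lay within the control range or just under it, and the change was -0.27 (SE 0.25, 95% interval -0.86 to 0.32; limma adjusted p = 0.664). Sesn2 (1391607_at) was at 8.32, 7.82 and 8.72 in high fat livers, against 8.04, 8.85 and 8.19 in control livers. The arrays were interleaved, with changes of -0.07 (SE 0.30, 95% interval -0.78 to 0.63; limma adjusted p = 0.933) and, on the dimmer probe set 1396901_at, -0.31. Ddit4 (1368025_at) was at 8.93, 8.98 and 9.23 in high fat livers, against 9.63, 9.11 and 9.65 in control livers. It overlapped through 1 pair of arrays, high fat replicate 3 above control replicate 2, and the change was -0.42 (SE 0.19, 95% interval -0.87 to 0.03; limma adjusted p = 0.385). Ddit4 also answers to glucocorticoids. Of 10 glucocorticoid targets tested, 5 had positive and 5 negative changes, with Per1 at -0.34 and Tat at -0.51. In 1, Tsc22d3 (0.47, SE 0.20), all high fat arrays lay above all control arrays, where 9.24% of all tested genes did. The count upward was 2 without control replicate 2, where 15.3% of all tested genes lay above. The count downward was 2 without control replicate 1, where 17.9% lay below.

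**Figure D2:**
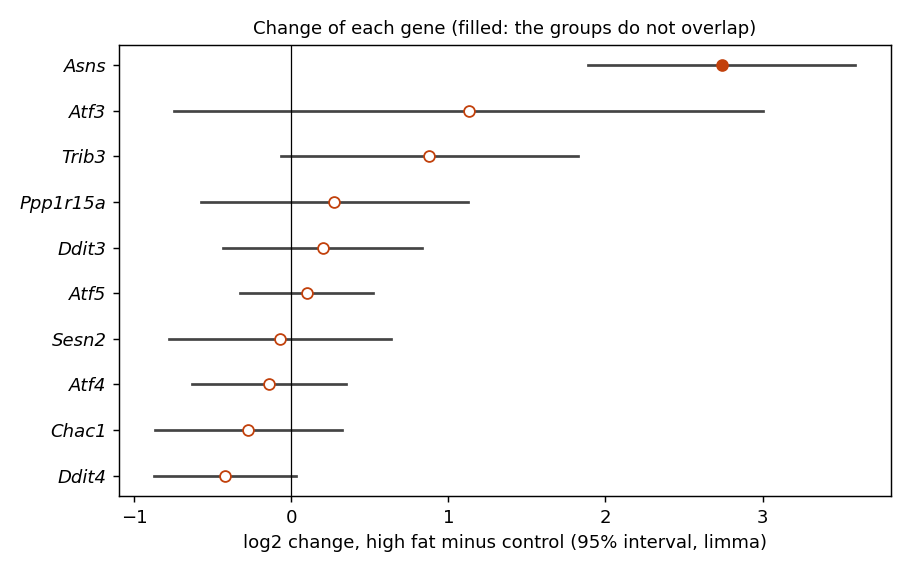
Log2 change of each of the 10 genes, high fat minus control, with limma's 95% interval (n = 3 arrays a group); the filled point marks the gene whose groups do not overlap. The interval of Asns runs from 1.89 to 3.59, and those of the other 9 genes include 0.

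The 10 genes gave no shared direction. Asns, 1 of 10, had all high fat arrays above all control arrays, where 9.24% of all tested genes did, and none had them all below, where 11.5% did. None of the 10 passed limma's adjusted p of 0.05, where 0.0386% of all tested genes did, and 1, Asns, had an unadjusted p under 0.05, where 14.1% did. By a looser rule, a difference of at least 1.5-fold whose unadjusted p is below 0.05, Asns was the 1 member higher in high fat livers, against 3.34% of all tested genes, and no member was lower by that rule, against 3.37%. Changes were positive in 6 members and negative in 4, with a median of 0.15 over the 10 and -0.02 over all tested genes. Apart from Asns, the median was 0.10. The shares of members are near those of all genes, so nothing beyond the values of single members is read from them.

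High fat replicate 2 was the highest of the 6 arrays for 5 of the 10 genes (Asns, Atf3, Ddit3, Trib3 and Ppp1r15a), and high fat replicate 1 for none. Without high fat replicate 1, Atf3 and Trib3 joined Asns in having all high fat arrays above all controls, while the share of all tested genes doing so was 14.5%. Their changes were then 1.93 and 1.27, with limma adjusted p of 0.309 and 0.253. Without control replicate 2, Trib3 (1.08) joined Asns above, where 15.3% of all tested genes lay, and Ddit4 lay below at -0.60, where 17.8% lay. Ddit4 also lay below without high fat replicate 3, at -0.51, where 16.4% of all tested genes did.

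The 5 tested genes whose profile over the 6 arrays was closest to that of Asns were Serpina6, Gstp3, Pdk4, AKR1C3l1 and Nrep. Likeness was the mean absolute difference between 2 genes after each was centred on its own mean, in log2 units, and it was 0.23 for Serpina6, which encodes corticosteroid-binding globulin, 0.32 for Gstp3, 0.33 for Pdk4, a kinase that restrains pyruvate dehydrogenase, 0.36 for AKR1C3l1 and 0.38 for Nrep. None is a member of the set. The control values of AKR1C3l1 (5.64, 5.15 and 4.54) lay under the brightness limit of 5.83. Among the members, Trib3 (0.93) and Atf3 (1.00) came closest, at ranks 153 and 254 among the other 10371 genes, and Ddit4 (1.58) was the farthest. The order of the 3 controls was part of the likeness, since Serpina6, Gstp3 and AKR1C3l1 shared with Asns the order control replicate 1, then 2, then 3.

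**Figure D3:**
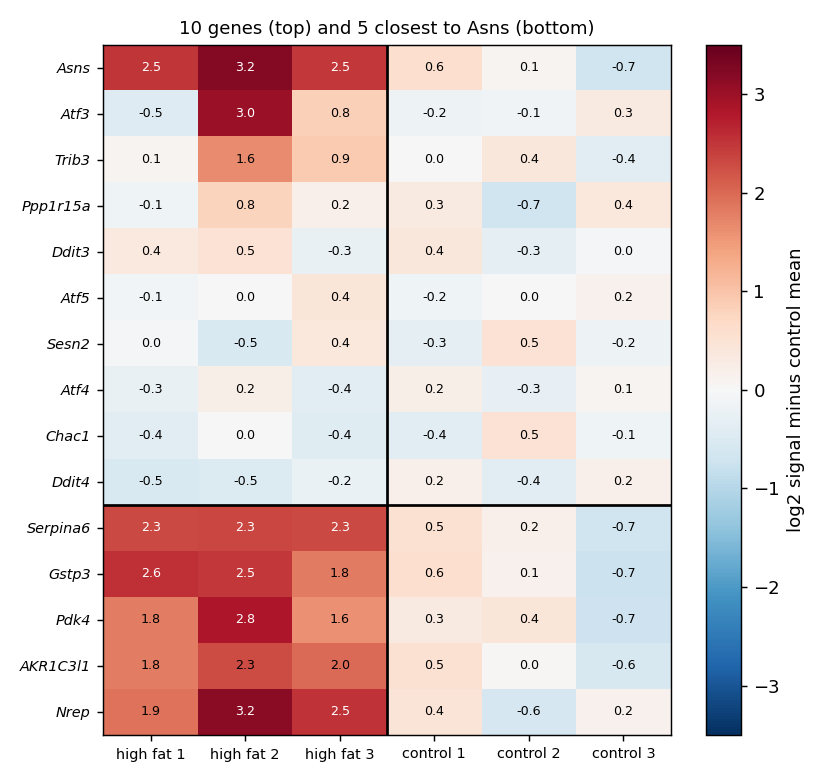
Log2 signal of each gene minus its own mean over the control arrays, by array, for the 10 genes (top, ordered by change) and the 5 genes closest to Asns (bottom); red is above and blue below the control mean. Asns and the 5 lower genes are red on all 3 high fat arrays, while Atf3 and Trib3 are so mainly on high fat replicates 2 and 3.

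Other ATF4 targets, taken from 4 lists of the genes it is known to raise, are set beside the 10 here. Of the 47 tested, of 54 listed, 23 had all high fat arrays above all control arrays and 2 all below (9.24% and 11.5% of all tested genes), with a median change of 0.37. With 1 array left out the 23 became 23 to 29 and the 2 became 2 to 5. Over all tested genes 13.0% to 15.3% then lay above and 15.7% to 17.9% below. Without high fat replicate 1 the count above was 23. The lists were drawn up with earlier results of these arrays known, so these counts describe them and are not independent evidence of a direction.

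Serine, one-carbon and amino acid enzymes had 5 of 12 tested genes apart upward and 1 downward, with a median of 0.34. Without control replicate 1 it was 5 upward and 4 downward, with a median of 0.22. Of all tested genes 14.4% then lay above and 17.9% below. Psat1, of serine synthesis, rose: it was at 11.19, 10.92 and 10.37 in high fat livers, against 7.75, 7.70 and 8.25 in control livers, a change of 2.92 (SE 0.25, limma adjusted p = 0.0255). With 1 array left out the change ran from 2.74 to 3.15, but the call held only without high fat replicate 3 (limma adjusted p = 0.0300); without each of the other 5 arrays the adjusted p was 0.0683 to 0.153. Phgdh, the first enzyme of that route, was at 3.14 (SE 0.40, limma adjusted p = 0.119) and the mitochondrial folate enzyme Mthfd2 at 1.31 (SE 0.15, limma adjusted p = 0.0971). Psph, the last enzyme of serine synthesis, was at 0.20 (SE 0.18) and the mitochondrial Shmt2 at 0.09 (SE 0.16). Cbs, which commits homocysteine to cysteine, was at -1.002 (SE 0.24).

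Amino acid transporters had 4 of 9 apart upward: the cationic carrier Slc7a1 (2.85, SE 0.48), the cystine carrier Slc7a11 (1.79, SE 0.43), its partner chain Slc3a2 (1.00, SE 0.21) and the glycine carrier Slc6a9 (0.97, SE 0.21). The share of all tested genes apart upward was 9.24%. The other 5 transporters lay between -0.78 and 0.13, and the list's median was 0.13, or 0.57 without high fat replicate 1. Slc7a5, the partner of Slc3a2 for large neutral amino acids, was at 0.13 (SE 0.22), and Slc38a2 at -0.09 (SE 0.29). The control means of Slc7a1 (5.66) and Slc7a11 (4.95) lay under the brightness limit of 5.83. Both were bright enough to be tested only through their high fat arrays.

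The aminoacyl-tRNA synthetases, with the tRNA exporter Xpot, had 9 of 14 apart upward and none downward. The shares of all tested genes were 9.24% and 11.5%. This list's median of 0.56 was the highest of the 4 lists. Differences were small and alike: Gars1 was at 11.83, 11.86 and 11.80 in high fat livers, against 11.02, 11.18 and 11.07 in control livers, a change of 0.74 (SE 0.12, limma adjusted p = 0.142). Iars1 was at 0.70 (SE 0.14), Xpot at 0.68 (SE 0.14), Mars1 at 0.58 (SE 0.15) and Nars1, which charges the tRNA of asparagine, at 0.58 (SE 0.16). Aars1, Eprs1 and Wars1 lay between -0.10 and 0.06. Control replicate 1 was the highest control for Aars1, Eprs1 and Wars1. Without it 13 of the 14 stood apart upward, all but Wars1, where 14.4% of all tested genes lay above.

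Secreted, growth control and autophagy targets had 5 of 12 apart upward and 1, Ero1a (-0.43, SE 0.14), downward. The shares of all tested genes were 9.24% and 11.5%. The downward count was 2 without high fat replicate 2 or control replicate 2, where 15.7% and 17.8% of all tested genes lay below. The upward count was 7 without control replicate 1 and 6 without high fat replicate 3. The shares of all tested genes above were then 14.4% and 13.0%. The hormone Fgf21 was at 9.67, 10.38 and 9.92 in high fat livers, against 7.94, 8.96 and 6.52 in control livers, a change of 2.18 (SE 0.58, limma adjusted p = 0.218). Nupr1 was at 1.10 (SE 0.20), the translation repressor Eif4ebp1 at 0.53 (SE 0.15) and the circulating stress hormone Gdf15 at 0.70 (SE 0.21). Vegfa (-0.20) and Gadd45a (-0.19) overlapped between the diets.

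**Figure D4:**
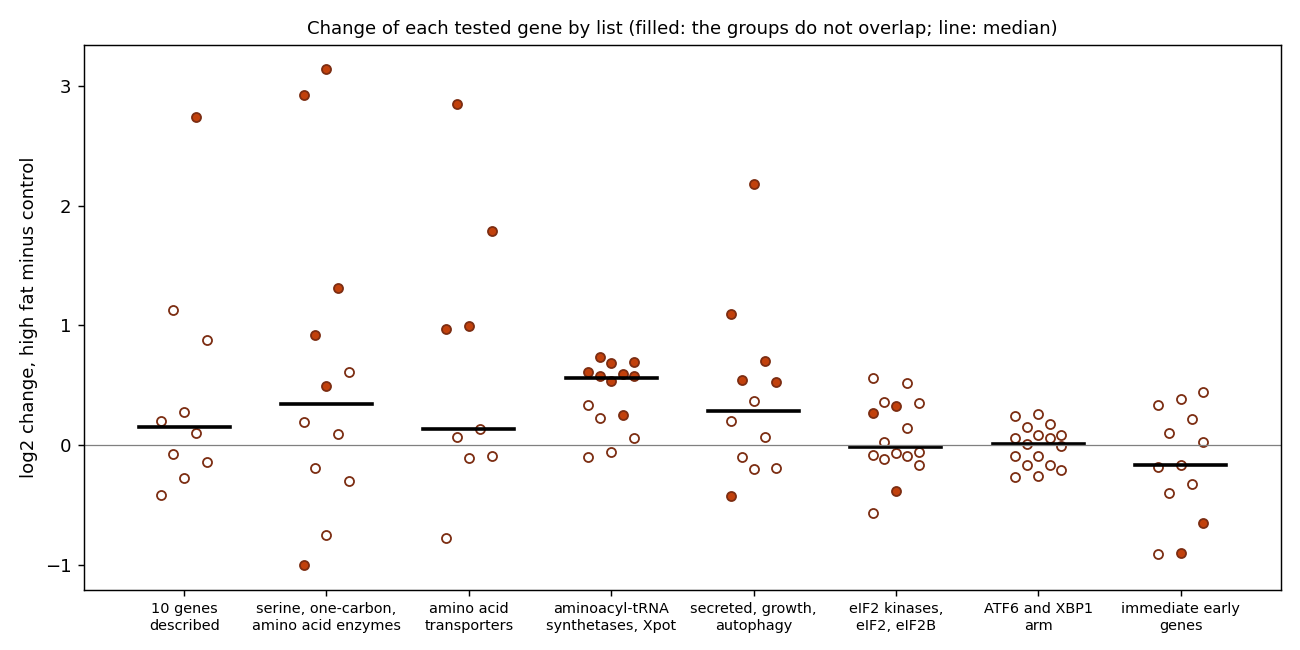
Log2 change, high fat minus control, of every tested gene in 8 lists; filled points are genes whose high fat and control arrays do not overlap, and the black line is the list's median. In the aminoacyl-tRNA synthetase list 9 of 14 genes are filled and positive, against 1 of the 10 genes described and none of 17 in the ATF6 and XBP1 arm. The share of all tested genes was 9.24%. Without control replicate 1 these counts were 13, 1 and 8, and the share of all tested genes was 14.4%.

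Genes upstream of ATF4 gave no shared direction. Of 16 genes for eIF2 kinases, eIF2, eIF2B and their regulators, 8 had positive and 8 negative changes (median -0.02). Apart upward were 2, Eif2s1 (0.27, SE 0.13) and Eif2s2 (0.33, SE 0.13), both subunits of eIF2. The 1 apart downward was Ppp1r15b (-0.39, SE 0.19), the constitutive counterpart of Ppp1r15a. The shares of all tested genes were 9.24% above and 11.5% below. Eif2ak4 was at 8.91, 8.83 and 8.32 in high fat livers, against 8.81, 9.43 and 9.54 in control livers (change -0.57, SE 0.25), and Eif2ak3 was at 0.52 (SE 0.28). The genes apart numbered 2 to 3 upward and 1 to 3 downward with 1 array left out. Of all tested genes 13.0% to 15.3% then lay above and 15.7% to 17.9% below. None of the 16 passed limma's adjusted threshold. Phosphorylation of eIF2 was not measured.

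Of 9 partner and related factors tested, of 12 listed, 2 stood apart upward, Cebpg (0.45, SE 0.14), which pairs with ATF4, and Nupr1. The share of all tested genes was 9.24%. Cebpb was at 0.08 (SE 0.18) and Cebpd at -0.61 (SE 0.40). Without control replicate 2, 2 of the 9 stood apart downward, and without high fat replicate 2, 1 did. Of all tested genes 17.8% and 15.7% then lay below. Among 12 tested relatives of the members, 2 stood apart upward, Cebpg and Asnsd1 (0.38, SE 0.15), and 1 downward, Ppp1r15b. The shares of all tested genes were 9.24% and 11.5%. Without high fat replicate 3, 4 relatives stood apart upward, where 13.0% of all tested genes lay above. Without high fat replicate 2 or control replicate 2 it was 2 downward, where 15.7% and 17.8% lay below. Sesn1, a p53 target and relative of Sesn2, was at 0.80 (SE 0.34), and Chac2 at 0.23 (SE 0.15). Of 10 p53 targets tested none stood apart, where 9.24% of all tested genes lay above and 11.5% below. Plk3 was at -0.58 and Tp53inp1 at 0.71. Without high fat replicate 3 it was 4 upward, where 13.0% of all tested genes lay above. The median of the p53 targets was then 0.27, against 0.14 over all arrays.

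The ATF6 and XBP1 arm, which answers to unfolded proteins in the endoplasmic reticulum, held no gene of 17 whose groups stood apart. Over all tested genes 9.24% lay above and 11.5% below. The arm had 9 positive and 8 negative changes and a median of 0.01. Its chaperone Hspa5 was at 14.31, 14.76 and 14.36 in high fat livers, against 14.65, 14.04 and 14.28 in control livers (change 0.15, SE 0.21). Edem1 was at -0.26, Xbp1 at 0.26 and Dnajb9 at 0.24. Control replicate 1 was high for this arm, with a median of 0.54 above the control mean. Without it 8 of the 17 genes stood apart upward, where 14.4% of all tested genes did, and the median was 0.23.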

How the data were processed

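RNA of 6 livers was labelled with a 3' IVT kit and read on 1 Affymetrix array each, per the labels' protocols. The authors deposited 1 log2 value per probe set; the base follows from the values, since base 2 brings the 2% trimmed mean of all arrays to about 500.2. No label names the software behind them.

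Array quartiles lay up to 0.22 apart, above a limit of 0.1, so arrays were quantile-normalized. Of 31042 probe sets that were not controls, 20826 had 1 gene, 436 several and 9780 none; symbols were updated through RefSeq's gene table. A gene took its probe set with the highest mean, and the lowest 40% of probe sets, below 5.83, were left out. High fat was compared with control in limma 3.58.1 (R 4.3.3; lmFit, eBayes, 2-sided, Benjamini-Hochberg over 10372 genes), tested on simulated data. Plots used matplotlib 3.10.9 (Python 3.11.15). The number of arrays limits the precision.

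The members and lists were chosen with earlier results of these data known. Named genes were all members, the 3 genes with the smallest p in each list, any past the threshold and the 5 closest to Asns; further ones were chosen after their values were seen. Alternatives covered normalization, filter, probe sets, variance model, array weights, replicate block, threshold and each array left out (probe sets and filter held fixed); list counts and Psat1 with an array left out were added after seeing the data. Deviations of same-numbered samples correlated at -0.13, -0.13 and -0.14, so the numbers were not taken as pairs.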

Additional observations from a re-analysis of the deposited data

How the results depend on the processing

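Asns kept its positive change and stayed outside limma's adjusted threshold in all 15 alternatives that gave it a value, with changes of 2.39 to 3.04 with 1 array left out and 2.66 to 2.74 otherwise; its limma adjusted p ran from 0.0526, with the lowest 60% of probe sets left out, to 0.276 with no filter. No member passed in any alternative. The median over the members ran from 0.06 to 0.21 with 1 array left out. Members whose groups did not overlap numbered 1 to 3 with 1 array left out, against 1 over all arrays. Of all 10372 tested genes 3016 to 3438 did not overlap with 1 array left out, against 2154 over all arrays. Changes crossed 0 with 1 array left out for Atf5 (-0.059 to 0.20), Ppp1r15a (-0.081 to 0.48) and Sesn2 (-0.29 to 0.17); the cause was not tested. Over all genes, limma called 4, but 1 with no filter, 7 at an adjusted p under 0.10 and 0 to 4 with 1 array left out. It called 0 when control replicate 1 was left out, with 1305 genes at an unadjusted p under 0.05, and 0 when control replicate 3 was, with 1146. With the replicate block it called 0, with 1103 at an unadjusted p under 0.05 and Asns at 2.74 (limma adjusted p = 0.213); the samples share only a number. With every probe set on its own, where 18625 were tested, 1285 were on the looser list, against 696 genes. Groups did not overlap for 3532 of these probe sets, against 2154 of the 10372 genes over all arrays. With 1 array left out the count of genes, not of probe sets, was 3016 to 3438. Atf3 fell under the limit when the lowest 60% of probe sets were left out and has no value there.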
